A study of Danio rerio with 8 samples.

Results

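Transcript levels of 3 genes of the response to DNA damage and of cell death, gadd45ba (ENSDARG00000027744), casp8 (ENSDARG00000058325) and polh (ENSDARG00000070231), were followed in iqgap1-/- zebrafish embryos that had hemorrhaged. The 3 genes were found by their symbols among the 1293 genes of the authors' deposited table. Each group comprised 4 pools of whole embryos at 53 hours post fertilisation, with 20 embryos per pool by the series' design text. The control pools were wild-type embryos, and the mutant pools were iqgap1-/- embryos chosen because they showed hemorrhage, so that the genotype and the hemorrhage cannot be told apart. The labels name no treatment, no allele of iqgap1 and no kinship between the groups, and they say that embryos came from single and group crosses. The extraction protocol in the labels, unlike the design text, has RNA taken from single larvae. Nothing states whether the pools came from separate clutches, so p-values measure the spread between these pools.

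The 3 genes act at different steps. Gadd45 proteins are small stress-induced proteins that have no enzymatic activity of their own and bind partners, among them kinases that activate the p38 and JNK pathways and proteins of the cell cycle. Their genes are known for rapid transcription after DNA damage, cytokines and other stress. Caspase 8, the product of casp8, is the protease that death receptors recruit to start apoptosis, and in mammals it also restrains necroptosis. DNA polymerase eta, the product of polh, copies past ultraviolet-induced thymine dimers, and loss of it in humans causes the variant form of xeroderma pigmentosum.

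The table is itself a selection: no listed gene has an adjusted p above 0.04997, and none has a log2 fold change smaller in size than 0.5856, both by the authors' comparison of these groups. A row in it is therefore part of how the 3 genes came to be described, and their being changed is no independent finding. Summed over its genes, a pool held 354272 to 552331 expected counts, a part of its library and not its depth. Of the mutated gene, iqgap1, there were 2157 ± 54.8 normalized counts in wild-type pools against 1057 ± 148 in mutant pools (SD, n = 4 each), lower in all 4 mutant pools. Normalized counts are expected counts divided by a size factor per pool. Markers of blood cells that whole embryos hold differed between the groups as well. The 12 erythrocyte markers all had a row, against 4.81% of the 26889 genes over which the authors had adjusted, and 11 were called higher by the test described below, with summed levels of 43772 to 74148 in wild-type and 141770 to 187033 in mutant pools. Of 10 neutrophil markers 7 were listed and all 7 were called higher (2866 to 3111 against 5206 to 6556), and of 11 macrophage markers 7 were listed and 6 were called lower (20769 to 27652 against 13203 to 18577). Of all 1126 listed genes tested, 37.3% were called higher and 29.4% lower. The marker lists were chosen with earlier results of these data known, so these shares and calls are no independent finding. No listed marker was at 0 in every pool. Their part in the results below was not tested.

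The stress gene gadd45ba was 2.22-fold higher in mutant than in wild-type embryos. Wild-type pools 1 to 4 had 170, 171, 150 and 177 normalized counts, and mutant pools 1 to 4 had 445, 377, 386 and 272. Every mutant pool lay above every wild-type pool, and mutant pool 4 was the lowest of its group. The means were 167 ± 11.7 in wild-type pools against 370 ± 71.8 in mutant pools (SD, n = 4 each). The log2 fold change was 1.15 ± 0.15 (SE; quasi-likelihood test in edgeR, adjusted p = 0.00173). The rise of gadd45ba passed the test without any 1 of the 8 pools, with log2 fold changes from 1.05 to 1.27. From 535 of 1145 (without mutant pool 2) to 804 of 1158 (without mutant pool 1) tested listed genes were called in these fits. How many were called in all of them was not counted, so passing is not read as particular to gadd45ba. Those fits kept the size factors that had been set from all 8 pools. In whole-embryo RNA, more cells that express a gene and more RNA per cell cannot be told apart.

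The apoptosis gene casp8 was 1.66-fold higher in the mutants, the smallest change of the 3. Its wild-type pools had 80.9, 112, 88.7 and 96.7 normalized counts and its mutant pools 136, 170, 170 and 153, in the order of pools 1 to 4. The groups did not overlap, and wild-type pool 2 came nearest to the mutants. From 94.6 ± 13.4 in wild-type pools against 157 ± 16.2 in mutant pools (SD, n = 4 each), the log2 fold change was 0.73 ± 0.14 (SE; quasi-likelihood test in edgeR, adjusted p = 0.0164). The call of casp8 was lost without wild-type pool 1 (adjusted p = 0.0534), 3 (0.0563) or 4 (0.0518) and without mutant pool 2 (0.0679) or 3 (0.0634). The log2 fold change stayed between 0.66 and 0.82 over all 8 such fits. These kept the size factors set from all 8 pools, and on that scale the size of the difference moved little. Genes without a row entered the adjustment with the highest possible p-value, which can only raise these adjusted p-values. The spread in the model was estimated from listed genes alone, which can lower them, and neither effect was measured.

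The polymerase gene polh went the other way and was 2.41-fold lower in the mutants. Wild-type pools 1 to 4 had 258, 271, 298 and 298 normalized counts, while the mutant pools had 113, 114, 120 and 120. The lowest wild-type pool lay far above the highest mutant pool, and the mutant pools were almost level. The means were 281 ± 20.1 and 117 ± 3.68 (SD, n = 4 each), and the log2 fold change was -1.27 ± 0.10 (SE; quasi-likelihood test in edgeR, adjusted p = 0.000166). Among the 1126 genes tested, polh had rank 22 by p. Worked back from the authors' p-values before and after adjustment, polh was rank 66 of 26889 genes by p, gadd45ba rank 278 and casp8 rank 875.

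**Figure D1:**
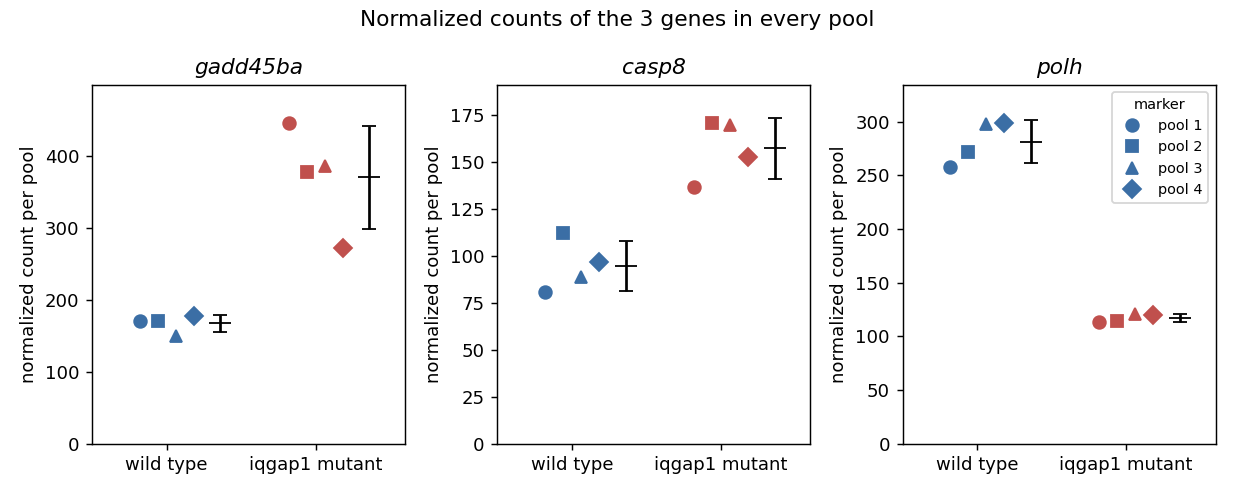
Normalized count (y axis, from 0) of gadd45ba, casp8 and polh in each of 4 wild-type pools (blue) and 4 iqgap1 mutant pools (red). Marker shape gives the pool number, and black bars are the mean ± SD. The groups do not overlap for any of the 3 genes, and the mutant pools of polh lie between 113 and 120.

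These calls have to be read against the table. The test called 66.7% of the 1126 listed genes tested, so that a call is the usual outcome for a listed gene. Every listed gene, also one not called here, had an adjusted p under 0.05 in the authors' comparison. In 90.5% of the tested genes the groups of 4 did not overlap. An exact two-sided permutation test over the 8 pools gave p = 0.0286 for each of the 3 genes, the smallest value that 4 against 4 allows. In size, gadd45ba lay near the median of the higher genes (log2 fold change 1.07 over 661 tested genes), casp8 below it and polh near the median of the lower genes (-1.14 over 465).

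The observed spread between pools was not the same for the 3 genes. In wild type the coefficient of variation was 6.99% for gadd45ba, 7.15% for polh and 14.2% for casp8. The median over the 654 tested genes with a mean of 50 or more was 14.3% among wild-type and 14.0% among mutant pools. In the mutants the coefficient was 19.4% for gadd45ba, 10.3% for casp8 and 3.14% for polh. The values of these mutant pools thus ranged most widely for gadd45ba and least for polh. Sampling noise alone spreads counts as low as those of polh in the mutants (93 to 117). The 3.14% is therefore not read as a lesser spread of polh between embryos. The part of sampling noise in these coefficients was not tested, nor was a difference in spread between the genes. All 8 expected counts of each gene were whole numbers; before scaling they ran from 172 to 192 in wild type and from 257 to 460 in the mutants for gadd45ba, from 87 to 113 and from 131 to 164 for casp8, and from 273 to 349 and from 93 to 117 for polh.

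The log2 fold changes of all 3 genes moved alike with the scale set between the groups. That scale was taken from the authors' fold changes, since genes selected for a difference have no unchanged majority. RLE size factors computed from the listed genes called 10.1% of tested genes as higher and 41.6% as lower, and shifted the median log2 fold change by -0.51. Under RLE scaling gadd45ba had a log2 fold change of 0.64 (adjusted p = 0.143) and casp8 of 0.21 (adjusted p = 1), neither of them called, while polh had -1.78 (adjusted p = 2.51e-05). With TMM over the listed genes (14.5% higher, 40.3% lower), a shift of -0.38, gadd45ba was called at 0.77 (adjusted p = 0.0399), casp8 was not at 0.34 (adjusted p = 0.932), and polh was called at -1.65 (adjusted p = 3.74e-05). Both scalings shifted all genes downward, so they could end the call of a rise but not that of a fall. RLE scaling called 465 genes lower, and 465 tested genes were lower on the authors' scale. A lower call under it is therefore no support. Since the table holds no gene with a log2 fold change under 0.5856 in size, shifts of this extent say nothing about directions.

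**Figure D2:**
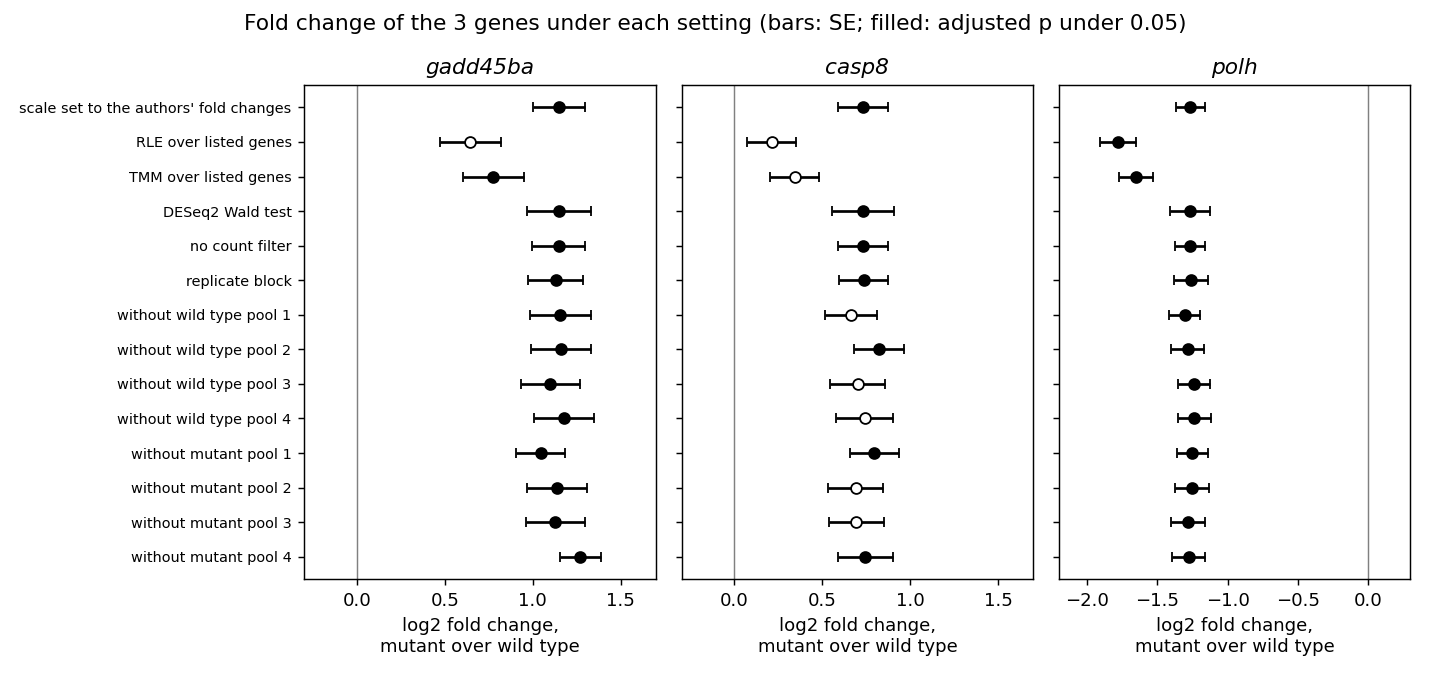
Log2 fold change of mutant over wild type (x axis) with its SE for gadd45ba, casp8 and polh under each setting (y axis); filled circles have an adjusted p under 0.05 and open circles do not. All values of polh lie between -1.78 and -1.24, whereas casp8 falls to 0.21 under RLE scaling and is open in 5 of the 8 fits that leave out a pool.

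Ratios of 2 genes within a pool do not depend on that scale. Since gadd45ba and casp8 are listed as higher and polh as lower, their ratios to polh had to rise. That rise is therefore no further support. The ratio of gadd45ba to polh counts was 0.661, 0.630, 0.504 and 0.593 in wild-type pools 1 to 4 and 3.93, 3.30, 3.20 and 2.27 in mutant pools 1 to 4. Its mean was 5.32-fold higher in the mutants, and no wild-type pool came near the mutant range. For casp8 to polh the ratio was 0.338 ± 0.0521 in wild-type pools against 1.34 ± 0.129 in mutant pools (SD, n = 4 each), which is 3.98-fold higher, again without overlap. The ratio of gadd45ba to casp8 was 1.79 ± 0.246 and 2.38 ± 0.625. Here the groups overlapped, since mutant pool 4 (1.78) lay below wild-type pools 1 (2.10) and 4 (1.83). The absolute size of these ratios also reflects transcript length, so they compare the groups and not the levels of the genes.

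**Figure D3:**
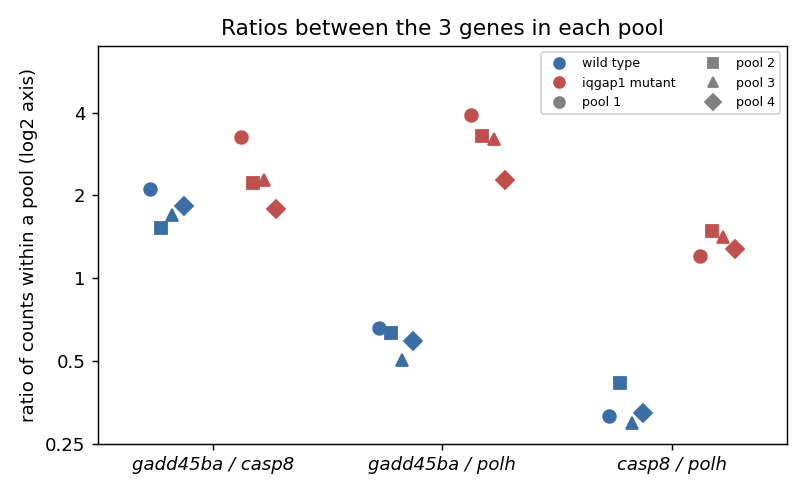
Ratio of expected counts between pairs of the 3 genes (y axis, log2 scale) in each wild-type (blue) and mutant (red) pool, with marker shape for the pool number. The ratios to polh separate the groups completely, from at most 0.661 to at least 2.27 for gadd45ba, while the ratio of gadd45ba to casp8 overlaps. A rise of the ratios to polh follows from the selection of the listed genes.

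The wider pathways were examined through 8 gene lists of 321 symbols, 296 of which were found in the reference gene names. Of the 321, 8 had a row in the table (2.49%), against 4.81% of the 26889 genes over which the authors had adjusted. Symbols not found in the reference may not be among those 26889 genes, so both shares rest on unlike denominators. Of these 8 genes, 6 were called, 4 higher (gadd45ba, casp8, hdr and cry5) and 2 lower (polh and isg15), where 66.7% of all tested genes were called. Their median log2 fold change was 0.75, beside 0.70 over all genes tested. The lists hold gadd45ba, casp8 and polh themselves, whose rows were given in advance. The share with a row, the calls and the median all include them. Genes of the lists without a row were not analysed here, and nothing is said of their levels.

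Among upstream genes of the death receptor pathway, 2 of 33 symbols had a row. The hematopoietic death receptor gene hdr, which encodes a zebrafish receptor of the tumour necrosis factor receptor family, was higher together with casp8. It had 133, 130, 119 and 114 normalized counts in wild-type pools 1 to 4 and 261, 220, 214 and 190 in mutant pools 1 to 4. The groups did not overlap, and the log2 fold change was 0.84 ± 0.13 (SE; quasi-likelihood test in edgeR, adjusted p = 0.00448). With RLE scaling hdr had a log2 fold change of 0.33 and was not called (adjusted p = 1), and with TMM it was not called either (adjusted p = 0.433). The gene cyldb encodes a deubiquitinase that in mammals restrains signalling from the tumour necrosis factor receptor. Its counts were low, 16.3 ± 6.2 in wild-type pools against 33.0 ± 7.15 in mutant pools (SD, n = 4 each), and it did not pass the test (log2 fold change 1.01 ± 0.30 (SE), adjusted p = 0.178). In the authors' comparison the adjusted p of cyldb was 0.0257.

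Caspases other than casp8 had no row, with 1 of 19 symbols listed. The same was true of the list for the Gadd45 family and its kinase partners, which also includes atf3 (1 of 17, gadd45ba). Of the list for DNA polymerases, which also includes other genes such as pcna and rad18, only polh had a row (1 of 39). None of the 42 symbols of mitochondrial apoptosis had a row. Of 43 symbols of p53 and its targets only isg15 had a row, the other gene of the lists that was called lower. The gene isg15 encodes a ubiquitin-like protein best known as induced by interferon. It was present at lower counts in the mutants, with 27.2 ± 9.57 normalized counts in wild-type pools against 9.77 ± 2.26 in mutant pools (SD, n = 4 each), and its log2 fold change of -1.46 ± 0.32 (SE) was called (adjusted p = 0.0332). The call of isg15 held without wild-type pool 2 and was lost when any other pool was left out, with adjusted p up to 0.119.

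Of 62 excision and mismatch repair symbols only cry5 had a row. It encodes a photolyase, a flavoprotein that repairs ultraviolet lesions with the energy of light. Its wild-type pools had 70.3, 68.9, 58.6 and 57.4 normalized counts and its mutant pools 107, 108, 97.1 and 122. All mutant pools were higher, by a log2 fold change of 0.77 ± 0.14 (SE; quasi-likelihood test in edgeR, adjusted p = 0.0128), and under RLE scaling it was 0.26 and not called (adjusted p = 1). With TMM cry5 was not called either (0.39, adjusted p = 0.882). On the authors' scale cry5 thus rose while polh fell, and no link between these changes was tested. Of 67 symbols of the damage checkpoint and strand break repair only rad51d, a gene of homologous recombination, had a row. It had 60.3 ± 2.66 normalized counts in wild-type pools against 36.8 ± 9.11 in mutant pools (SD, n = 4 each) and did not pass the test (log2 fold change -0.72 ± 0.20 (SE), adjusted p = 0.112). In the authors' comparison the adjusted p of rad51d was 0.0103. With RLE scaling rad51d was called at -1.23 (adjusted p = 0.00603), and with TMM at -1.10 (adjusted p = 0.0114). Both scalings shift genes downward, so these calls are no support for a fall.

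A further 4 listed genes with related roles were picked out after their values had been seen. The gene bcl10, whose product links antigen and stress receptors to nuclear factor kappa B, was higher, with 95.0 ± 10.8 and 147 ± 2.99 normalized counts (SD, n = 4 each), and its log2 fold change was 0.63 ± 0.12 (SE, adjusted p = 0.0176). Under RLE scaling bcl10 fell to 0.12 with no call (adjusted p = 1), and on the authors' scale its call was lost without wild-type pool 4 or mutant pool 2 or 3. The interferon-induced gene parp12a, of the poly(ADP-ribose) polymerase family, was lower, with 63.1 ± 13.9 and 23.8 ± 5.95 counts (log2 fold change -1.39 ± 0.24 (SE), adjusted p = 0.0084). The meiotic mismatch repair homologs had very low counts. Of them, msh5 had 7.82 ± 0.95 and 16.2 ± 1.24 (adjusted p = 0.0394), a call lost whichever pool was left out and in DESeq2 (adjusted p = 0.317). With 4.22 ± 2.36 and 0.583 ± 0.682 counts, msh4 was removed by the count filter, and it did not pass without that filter either (adjusted p = 0.167).

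**Figure D4:**
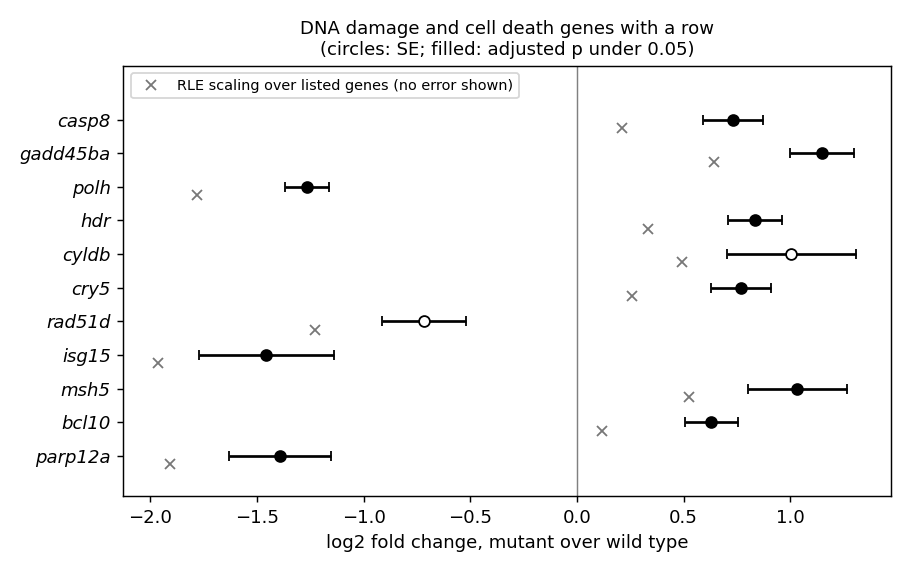
Log2 fold change of mutant over wild type (x axis) for the 8 genes of the fixed lists with a row and for msh5, bcl10 and parp12a, with SE; filled circles passed an adjusted p of 0.05. Grey crosses give the same genes under RLE scaling over the listed genes, which shifts the median by -0.51 and moves every plotted gene to lower values.

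The genes next to casp8 were also listed. Gene order was taken from the RefSeq annotation of GRCz12tu, which is not the authors' build, and was used for names and neighbours only. Of the 1293 listed genes 834 (64.5%) were placed in it, among 27026 protein-coding genes, so that 3.09% of the placed genes had a row. Within 10 protein-coding genes on each side, casp8 had 4 listed neighbours of 20, polh had 1 and gadd45ba had 0. Over all 834 placed genes the median was 1, and 45 (5.40%) had 4 or more. This is a description of the order of genes and was not tested.

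Of the 4 neighbours, 2 were called higher, where 37.3% of all tested genes were, and the other 2 did not pass the test. The strongest was tmbim1a, 3 genes away, whose mammalian counterpart is a membrane protein that limits death signalling from the Fas receptor. It had 679, 651, 705 and 646 normalized counts in wild-type pools 1 to 4 and 1567, 1299, 1315 and 1229 in mutant pools 1 to 4. The groups lay far apart, with a log2 fold change of 1.01 ± 0.11 (SE; quasi-likelihood test in edgeR, adjusted p = 0.000626). It was called under TMM at 0.64 (adjusted p = 0.041) and not under RLE scaling at 0.51 (adjusted p = 0.224).

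On the other side, l3hypdh, which encodes a dehydratase of hydroxyproline breakdown, lay directly beside casp8. It went from a mean of 120 ± 18.6 to one of 205 ± 24.8 normalized counts (SD, n = 4 each), and the log2 fold change of 0.77 ± 0.14 (SE) was called (adjusted p = 0.0141). With RLE scaling l3hypdh had 0.26 and was not called (adjusted p = 1). The ciliary gene catip, directly beside casp8 on the first side, had 31.1 ± 4.31 and 48.5 ± 4.87 counts and did not pass (0.64 ± 0.18 (SE), adjusted p = 0.145). The clone-named gene si:ch73-71c20.5, 4 genes away, was at 250 ± 22.8 in wild-type pools against 165 ± 36.3 in mutant pools. It did not pass either (-0.60 ± 0.16 (SE), adjusted p = 0.0968). In the authors' comparison the adjusted p was 0.0237 for catip and 0.0116 for si:ch73-71c20.5. RLE scaling, which shifts genes downward, called it at -1.12 (adjusted p = 0.000908), and that is no support for a fall. In that annotation the body of casp8 also overlaps that of asic4b, and the body of polh overlaps that of nrxn1b. The overlap is of gene bodies, and overlap of exons was not examined. No source used here states the strand setting of the authors' counting, and all 8 expected counts of casp8 and polh were whole numbers. Whether reads of the overlapping genes entered these counts was not tested, so both carry that uncertainty.

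The 1 listed neighbour of polh was gsta.1, a glutathione transferase gene 3 genes away, which fell by a similar factor. Its wild-type pools had 1353, 1128, 1334 and 1219 normalized counts and its mutant pools 606, 509, 443 and 460. All mutant pools lay below all wild-type pools (log2 fold change -1.32 ± 0.13 (SE), quasi-likelihood test in edgeR, adjusted p = 0.000318). RLE scaling, which could only enlarge a fall, gave gsta.1 -1.82 (adjusted p = 9.89e-05), so this call is no further support. Glutathione transferase genes occur as near-identical copies, so the count of gsta.1 is uncertain.

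**Figure D5:**
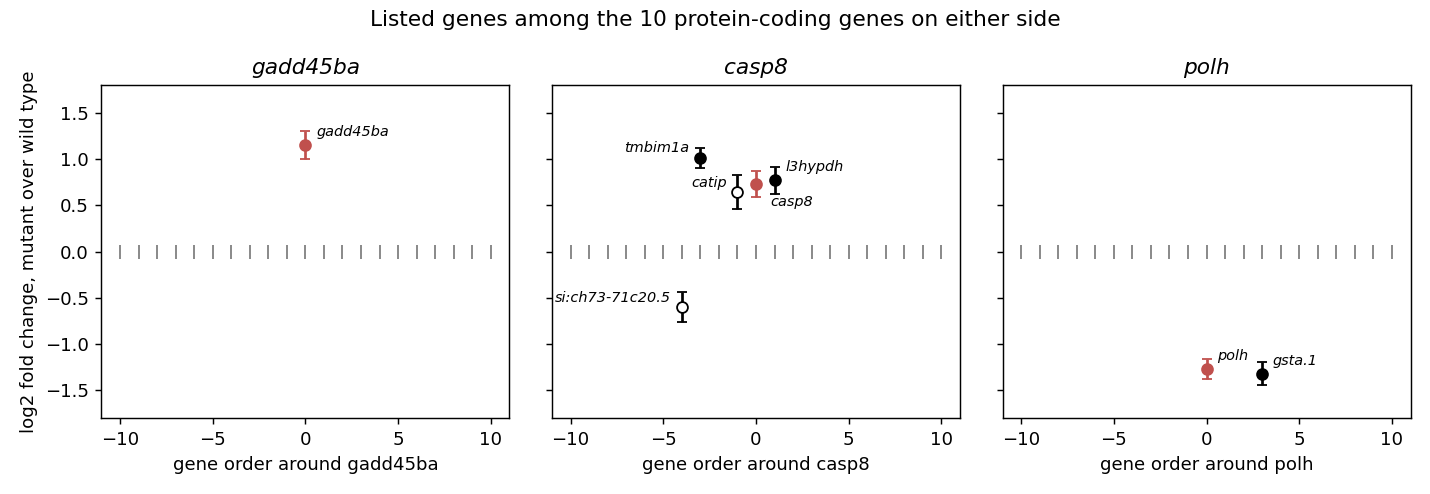
Log2 fold change (y axis, with SE) of the listed genes among the 10 protein-coding genes on either side of gadd45ba, casp8 and polh, by order along the chromosome (x axis, in genes from the named gene, grey ticks for every gene). The named gene is red, neighbours are black, and open circles did not pass an adjusted p of 0.05; 4 neighbours of casp8, 1 of polh and 0 of gadd45ba have a row.

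The genes whose pattern over the 8 pools was most like that of each gene were found among 425 other named genes with a mean of 50 or more. Likeness was the root mean square difference of log2(normalized count + 1) after each gene was centred on its own mean, so it reflects the difference between groups and the pools together. For gadd45ba the nearest were dcxr (difference 0.11), pex11g (0.11), g6pc3 (0.14), mmp9 (0.15) and clec3bb (0.15). Of these, mmp9 encodes a matrix metalloproteinase and is on the neutrophil marker list. Like gadd45ba, its mutant pools were uneven, at 310 ± 74.6 normalized counts after 133 ± 9.81 in wild type (SD, n = 4 each). The peroxisomal membrane gene pex11g had 75.9 ± 6.45 normalized counts in wild-type pools against 160 ± 34.0 in mutant pools, with pool 1 the highest mutant pool and pool 4 the lowest, as for gadd45ba. Pool 4 was also the lowest mutant pool for dcxr, g6pc3, mmp9 and clec3bb. Likeness over the pools is how these genes were picked, so it is no separate finding.

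For casp8 the nearest were the pseudokinase gene trib1 (difference 0.11), the properdin gene cfp (0.11), clec19a (0.12), the neural crest transcript crestin (0.12) and glg1b (0.13). Their log2 fold changes ran from 0.59 for clec19a to 0.78 for cfp. For polh they were the polycystin gene pkd1a (0.10), the autophagosome gene map1lc3b (0.11), pex11a (0.13), the helicase gene ddx43 (0.14) and ppdpfa (0.15). The autophagosome gene map1lc3b averaged 2216 ± 87.9 normalized counts over wild-type and 1052 ± 58.9 over mutant pools (SD, n = 4 each), which gave -1.08 ± 0.10 (SE) on the log2 scale (adjusted p = 0.000219). The smallest of these log2 fold changes in size were those of map1lc3b and ppdpfa (-1.08 each), and the largest was that of pkd1a (-1.22), so none fell as far as polh.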

How the data were processed

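Total RNA of whole embryos was sequenced from 8 pools after ribosomal RNA depletion, per the labels' protocols. Trimmomatic, STAR 2.7, RSEM and the build danRer11 are named in the submitters' processing notes, with no roles. Per the file headers, the deposited table of 1293 genes holds the authors' comparison: a log2 fold change, the same as a linear ratio, and a p-value before and after adjustment. No source used here names the tool behind it. The deposited values per pool are RSEM expected counts, each multiplied by 1 of 8 factors between 0.9784 and 1.0252 that run over the columns in 1 cyclic order with a start that changes from row to row. The start was taken as the one that made the most values multiples of 0.01. All 10152 nonzero values became such multiples, and 0 genes were ambiguous. The recovery was run again on the recovered counts times the same 8 factors with random starts, where all 1293 genes came back. That run assumes the factors and their cyclic order, so it cannot test them.

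Recovered counts were rounded to whole numbers and tested with edgeR 4.0.16 (R 4.3.3): filterByExpr (minimum count 10, minimum total 15; 1126 genes kept, 167 removed), glmQLFit and glmQLFTest. Size factors came from the median of ratios within each group, and mutant pools were shifted as 1 by -0.231 (log2) to match the authors' fold changes. Of 648 genes with a mean of 50 or more, 96.0% then lay within 0.01 of the authors' log2 fold change. The Benjamini-Hochberg adjustment of edgeR's p-values ran over 26889 genes, and the 25596 without a row entered it with the highest possible p-value. The last listed gene had rank 2485 by the authors' p, so some genes without a row had small p-values too. This treatment can only raise the adjusted p-values of listed genes. The spread in the model, however, was estimated from listed genes alone, which were selected for a difference between these same pools. Such a selection can lower p-values, and its effect was not tested. The number 26889 and the authors' ranks were worked back from their p-values before and after adjustment. The alternatives were DESeq2 1.42.0, RLE or TMM scaling, no filter, adjustment over tested genes, a replicate block, each pool left out, a threshold of 0.01 and an exact permutation test. All but RLE and TMM kept the size factors set from all 8 pools, so leaving out a pool does not test that scale. Pools of a group differed by more than sampling noise (chi-square of at least 2.52 per degree of freedom for every pair).

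The genes, lists and tests were chosen with earlier results of these data known. Genes were named if they were 1 of the 3, iqgap1, a listed member of a fixed list, 1 of the 5 nearest in pattern to each of the 3, or, after the data were seen, a neighbour or a related gene. Library depth over all genes was not used here.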

Additional observations from a re-analysis of the deposited data

Results flagged for a closer look

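Dixon's test asked, gene by gene, whether 1 pool of a group of 4 lay apart from its fellows. It was run 68 times, for the genes named above and for serinc4, a listed neighbour of iqgap1. It found 1 such pool. Chance alone would give 3.4 or so in unselected genes, but these genes were selected on the same pools, some for their pattern over them. The count is therefore not read against that figure. None of the tests on gadd45ba, casp8 or polh found such a pool, which says little for selected genes and 4 pools per group. Mutant pool 4 was the highest mutant pool for the meiotic gene msh5, with 18.0 normalized counts against 15.5 to 15.6 in the others.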

How the results depend on the processing

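The fall of polh was called with DESeq2, without the count filter and at a threshold of 0.01, and with log2 fold changes from -1.24 to -1.31 when any 1 pool was left out. RLE and TMM scaling over the listed genes could only enlarge it. The rise of gadd45ba was called in the same fits, between 1.05 and 1.27 with a pool left out, and with TMM, but not with RLE (0.64). The rise of casp8 was called with DESeq2 and without the filter, but not with RLE (0.21) or TMM (0.34), nor at a threshold of 0.01 (0.73, adjusted p = 0.0164), and ranged from 0.66 to 0.82 with a pool left out, called in 3 of those 8 fits. Adjustment over the tested genes alone called all 1126 of them, and the permutation test gave the smallest p it can for any gene without overlap, so neither bears on the stability of a call. The fits without a pool kept the size factors set from all 8 pools, so they do not test that scale. Of all listed genes 751 were called, 436 at a threshold of 0.01, 531 with a replicate block, 827 without the filter, 913 by DESeq2 and 535 to 804 with a pool left out. RLE scaling gave 113 higher and 465 lower calls and TMM 162 and 451, in place of 420 and 331. No source used here states whether the replicate numbers pair the pools. The correlation of same-numbered deviations from the group means was -0.25 to 0.09, and that between different numbers -0.36 to 0.34. These values cannot settle whether the pools were paired. With the replicate numbers as a replicate block, log2 fold changes were 1.13 for gadd45ba, 0.74 for casp8 and -1.26 for polh, all called. Under the same block, cry5 (adjusted p = 0.0692), isg15 (0.126), bcl10 (0.081), msh5 (0.286) and l3hypdh (0.0561) were not called. The low counts of msh4, msh5 and cyldb limit their values.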
